A study of Mus musculus with 23 samples.

Results

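The genes described here are 10 members of the Hippo signalling pathway and its nuclear end, among 54347 genes in a table of RNA sequencing counts: the coactivators Yap1 and Wwtr1 (the gene of Taz), the DNA-binding factors Tead1, Tead2, Tead3 and Tead4, the kinases Lats1 and Lats2, and the regulators Amotl2 and Ajuba. They were chosen by symbol, and all 10 were found. The tissue was the labial cervical loop, dissected from lower incisors of mice, which is the fold of dental epithelium at the base of the tooth that feeds its lifelong growth. All mice were at postnatal day 2 and of the line Sox2-GFP, in which the endogenous Sox2 promoter drives green fluorescent protein, so that every group carries the reporter. Dissociated cells were sorted into Sox2-positive cells, called dental epithelial stem cells (DESC) in the labels, and Sox2-negative cells, which are everything else in the dissected piece. Sorting was done in 2 batches, on different days and with different mice, and gave 6 Sox2-negative and 6 Sox2-positive libraries in batch A and 4 Sox2-negative and 7 Sox2-positive libraries in batch B. Day and mice cannot be told apart. The labels do not say whether libraries of 1 batch came from separate mice, so n counts libraries and p-values measure only the spread between libraries, which may be technical. Strain, sex and the number of mice are not given in the sources used here.

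In the Hippo pathway, Stk3 and Stk4 (Mst kinases) with Sav1, helped by Taok and Map4k kinases, activate Lats1 and Lats2 with their Mob1 partners. Lats kinases phosphorylate Yap and Taz, which holds them in the cytoplasm or leads to their degradation. Unphosphorylated Yap and Taz enter the nucleus and act through Tead factors, since they do not bind DNA themselves. Lats2, Amotl2 and Ajuba are both regulators of this pathway and known targets of it, so that they take part in feedback. Much of the pathway's control is on protein phosphorylation and location, which RNA counts do not measure. In epithelia, Yap is known for a part in the maintenance and proliferation of stem and progenitor cells, the incisor's cervical loop among them.

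The column totals ran from 2.31 to 9.54 M estimated counts (M, 1e+06), with the lowest and the highest both in batch B. Sox2 itself averaged 0.0412 CPM in Sox2-negative and 7.38 CPM in Sox2-positive libraries of batch A, and 0.284 and 16.8 CPM in those of batch B (CPM, counts per 1e+06 of the TMM-scaled total). The summed level of 7 epithelial markers lay between 4538 and 7532 CPM in Sox2-positive libraries and between 164 and 426 CPM in Sox2-negative ones, and all 7 passed the test as higher in Sox2-positive cells. In the Sox2-negative libraries the 8 mesenchymal markers summed to between 10242 and 13439 CPM, against 595 to 1801 CPM in Sox2-positive libraries. Twist1 was at 0 in every Sox2-positive library. The mesenchymal sums were the largest of the marker sums in batch A Sox2-negative libraries, while in those of batch B the erythroid sums were larger. The Sox2-negative libraries also held endothelial markers (122 to 802 CPM against at most 5.94) and leukocyte markers (179 to 1117 CPM against at most 13.9). Between batches, the 5 erythroid markers summed to between 52531 and 59139 CPM in the Sox2-negative group of batch B and to at most 1131 CPM in the other groups. The 5 glial markers summed to between 763 and 984 CPM in batch A Sox2-positive libraries and to between 37.7 and 73.3 CPM in those of batch B.

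The members lie on 7 chromosomes of the mouse genome (GRCm38, GENCODE M21): Yap1 at chr9:7931999-8004596, Wwtr1 at chr3:57455649-57575910, Tead1 at chr7:112679318-112906807, Tead2 at chr7:45215753-45233644, Tead3 at chr17:28331671-28350817, Tead4 at chr6:128224288-128300823, Lats1 at chr10:7681214-7716460, Lats2 at chr14:57689662-57758388, Amotl2 at chr9:102716672-102733418 and Ajuba at chr14:54567472-54577558. Gm49361, which shares 2955 exonic bases with Lats2 on the same strand, had at most 2 counts in any library, and Gm20416, which shares 116 exonic bases with Yap1 on the other strand, had at most 1. Cd37, a leukocyte gene that shares 13 exonic bases with Tead2 on the other strand, had up to 138.

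The promoters of the 4 members whose level differed between the sorted populations, and of Yap1, whose level did not pass that test, are shown because Tead factors are known to bind the sequence GGAATG. They come from the RefSeq promoter table (build GRCm38.p6), which held 8 of the 10 members, and run from 250 bases before to 50 bases after an annotated RefSeq transcript start. For Lats2 and Amotl2 that start lies inside the GENCODE span printed above, not at its end. For Ajuba it lies outside that span, as does the whole promoter shown. Each is printed 5′ to 3′ on the strand of its gene, and capitals mark GGAATG or its reverse complement CATTCC. They are Yap1 at chr9:8004547-8004846 (minus strand), Wwtr1 at chr3:57575861-57576160 (minus), Lats2 at chr14:57746074-57746373 (minus), Amotl2 at chr9:102717554-102717853 (plus) and Ajuba at chr14:54577612-54577911 (minus).
Yap1: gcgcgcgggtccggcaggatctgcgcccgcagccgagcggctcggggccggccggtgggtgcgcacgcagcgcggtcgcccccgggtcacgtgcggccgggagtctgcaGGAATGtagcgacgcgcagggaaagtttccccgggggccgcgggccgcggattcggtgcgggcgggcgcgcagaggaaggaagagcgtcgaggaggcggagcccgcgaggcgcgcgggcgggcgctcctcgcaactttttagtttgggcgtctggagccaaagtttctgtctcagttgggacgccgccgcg
Wwtr1: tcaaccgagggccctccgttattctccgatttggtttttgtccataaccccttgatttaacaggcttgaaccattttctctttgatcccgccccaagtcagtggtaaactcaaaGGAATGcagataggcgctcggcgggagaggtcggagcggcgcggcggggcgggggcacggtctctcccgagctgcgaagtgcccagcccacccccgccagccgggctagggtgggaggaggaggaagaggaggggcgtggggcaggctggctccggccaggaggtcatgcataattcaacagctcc
Lats2: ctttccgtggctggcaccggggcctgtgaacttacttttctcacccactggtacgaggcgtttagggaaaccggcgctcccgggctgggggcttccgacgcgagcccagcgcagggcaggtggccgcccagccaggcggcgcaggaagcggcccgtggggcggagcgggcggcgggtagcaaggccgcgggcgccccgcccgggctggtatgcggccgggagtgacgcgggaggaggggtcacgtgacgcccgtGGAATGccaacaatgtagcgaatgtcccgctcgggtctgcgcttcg
Amotl2: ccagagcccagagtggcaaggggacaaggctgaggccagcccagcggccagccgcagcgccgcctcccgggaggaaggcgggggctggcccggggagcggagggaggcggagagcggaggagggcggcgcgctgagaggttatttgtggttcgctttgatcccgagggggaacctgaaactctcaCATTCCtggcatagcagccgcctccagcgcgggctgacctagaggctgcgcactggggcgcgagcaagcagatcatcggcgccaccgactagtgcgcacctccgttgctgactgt
Ajuba: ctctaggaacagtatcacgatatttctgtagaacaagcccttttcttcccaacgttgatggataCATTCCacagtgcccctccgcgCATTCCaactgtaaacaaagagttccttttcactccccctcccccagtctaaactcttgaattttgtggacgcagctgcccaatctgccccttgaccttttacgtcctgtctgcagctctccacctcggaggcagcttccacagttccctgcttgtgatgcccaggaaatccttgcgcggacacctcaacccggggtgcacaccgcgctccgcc
Counted from that transcript start, the match began at -141 in Yap1, -136 in Wwtr1, 4 in Lats2 and -65 in Amotl2, and at -186 and -164 in Ajuba. A match on either strand stood in at least 1 promoter of 6 of the 8 members, the 5 above and Tead3, and in none of Tead2 and Lats1. Over the whole table, 16.6% of 27025 genes had a promoter with this sequence. A second promoter entry of Wwtr1 overlaps the one shown and holds the same match, and a second entry of Lats2 does not hold it. The AP-1 sequence TGANTCA, searched on both strands with N for any base, was in 8.97% of genes and in 0 of the 8 members. A match of letters is not evidence of binding.

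Of the 10 members, 9 had enough counts to be tested, and 4 of these 9 differed between Sox2-positive and Sox2-negative cells over both batches (adjusted p under 0.05, edgeR quasi-likelihood test over all genes). Ajuba was higher in Sox2-positive cells, and Wwtr1, Lats2 and Amotl2 were lower. Yap1, Tead1, Tead2, Tead3 and Lats1 did not pass the test. Over all 17190 genes tested, 57.5% were called (24.9% higher and 32.5% lower), so that the members were called no more often than other genes. The members' median log2 fold change was -0.25, against -0.12 over all genes. The same 4 members were called in batch A alone, where 43.4% of all genes were called (19.3% higher and 24.2% lower), and in batch B alone, where 54.7% were (27.1% higher and 27.6% lower). In bulk libraries, fewer cells of a type that expresses a gene and less RNA of that gene per cell cannot be told apart. The Sox2-negative libraries hold the mesenchymal, endothelial and blood markers given above. Their ameloblast markers summed to between 705 and 915 CPM in batch A, against 292 to 359 CPM in Sox2-positive libraries. In batch B these sums were 566 to 699 CPM against 6.73 to 10.6 CPM. Glial markers were higher in Sox2-positive libraries, at 763 to 984 CPM against 1.64 to 13.5 CPM in batch A. In batch B they were at 37.7 to 73.3 CPM against 6.46 to 13.3 CPM. The part of those cell types in the differences was not tested.

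**Figure D1:**
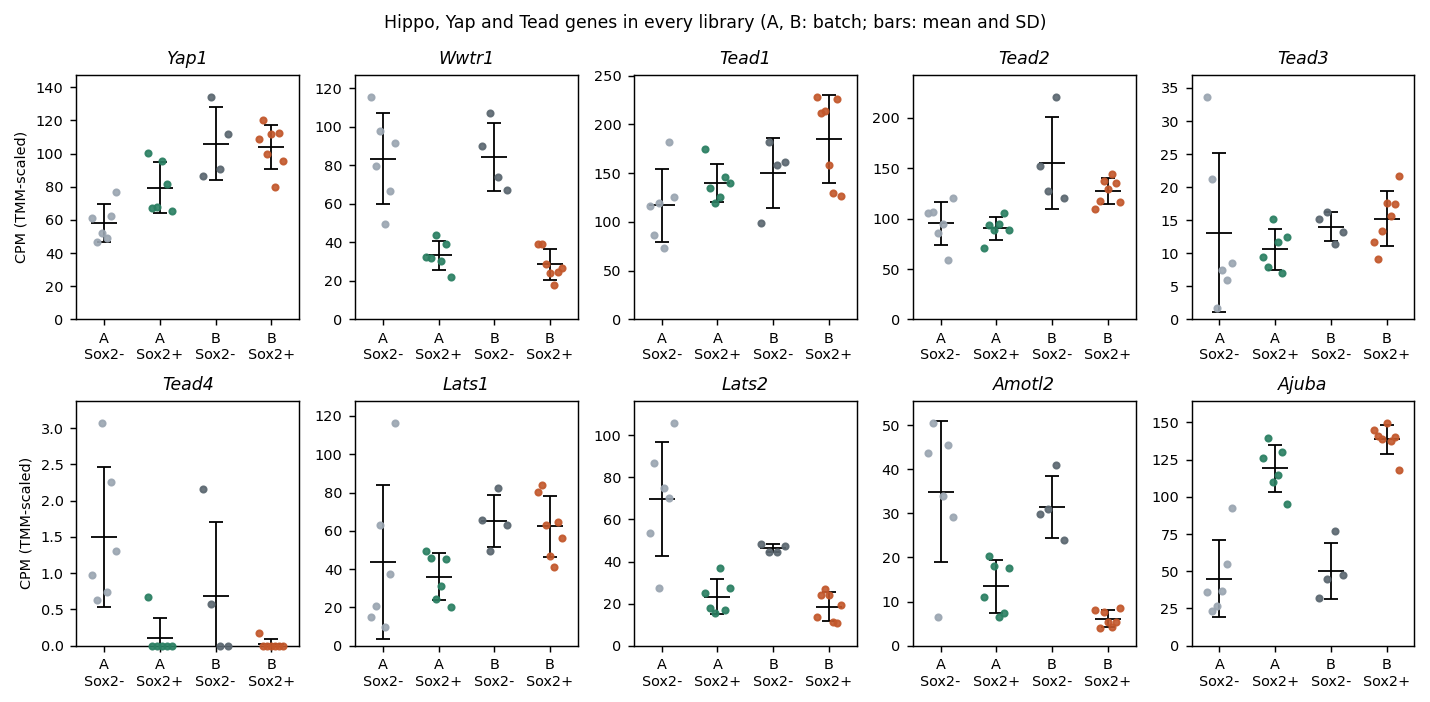
Level of each of the 10 genes in every library, in TMM-scaled CPM on a linear axis that starts at 0. Points are libraries of the 4 groups (A and B, batch; Sox2- and Sox2+, sorted population), and bars are the mean and SD. Wwtr1 lay lower and Ajuba higher in every Sox2+ library than in any Sox2- library of the same batch, while Yap1, Tead1 and Tead2 overlapped.

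Yap1 was measured at similar levels in both populations. In batch A its level ran from 46.7 CPM over a median of 56.7 to 77.2 CPM in Sox2-negative libraries, and from 65.1 over 74.5 to 100 CPM in Sox2-positive libraries. The 4 Sox2-negative libraries of batch B had 86.5, 134, 90.9 and 112 CPM, and the Sox2-positive ones ran from 80.0 over 109 to 120 CPM. The populations overlapped in both batches. For Yap1 the fold change on the log2 scale was 0.38 (SE 0.19, 95% interval -0.02 to 0.78, adjusted p 0.118) in batch A and -0.04 (SE 0.15, interval -0.35 to 0.27, adjusted p 0.833) in batch B, and with the batches combined it was 0.15 (SE 0.12, interval -0.11 to 0.40, adjusted p 0.323). The interval over both batches leaves room for a difference of up to 0.40 on the log2 scale, so equal levels were not shown.

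Wwtr1, by contrast, was lower in Sox2-positive cells in both batches. Batch A Sox2-negative libraries ran from 49.5 CPM over a median of 85.7 to 116 CPM, and Sox2-positive ones from 21.9 over 32.1 to 43.9 CPM. The 4 Sox2-negative libraries of batch B had 89.8, 107, 73.8 and 67.4 CPM, and the Sox2-positive ones ran from 17.7 over 26.8 to 39.4 CPM. The populations did not overlap in either batch, which held for 28.4% of all genes tested in batch A (13.9% higher and 14.6% lower) and 38.1% in batch B (19.1% higher and 18.9% lower). The level in Sox2-positive cells was 0.349 times that in Sox2-negative cells (log2 fold change -1.52, SE 0.16, adjusted p 7.6e-09), with -1.40 (SE 0.24, adjusted p 0.000186) in batch A and -1.58 (SE 0.20, adjusted p 7.83e-06) in batch B. Between batches Wwtr1 was within the spread of its libraries in both populations (log2 difference -0.23 with adjusted p 0.606 in Sox2-positive and 0.01 with adjusted p 0.987 in Sox2-negative cells).

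Inside each library, the ratio of Yap1 to Wwtr1 counts needs no scaling between libraries. In batch A the log2 ratio was -0.49 ± 0.42 (SD, n = 6) in Sox2-negative and 1.26 ± 0.42 (n = 6) in Sox2-positive libraries, and the ranges, -0.93 to -0.01 and 0.62 to 1.65, were apart. In batch B it was 0.33 ± 0.32 (n = 4) against 1.89 ± 0.30 (n = 7), again with no overlap. The difference was 1.76 in batch A (two-sided exact permutation test, p 0.00216, adjusted p 0.0108 over 10 ratio comparisons) and 1.57 in batch B (exact p 0.00606, adjusted p 0.0152), and these raw p-values are the smallest the numbers of libraries allow. As counts, the Sox2-positive libraries held 2.40 and 3.72 counts of Yap1 per count of Wwtr1 in batches A and B, and the Sox2-negative libraries 0.711 and 1.25. These are ratios of counts, not of transcripts, since the genes differ in length.

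**Figure D2:**
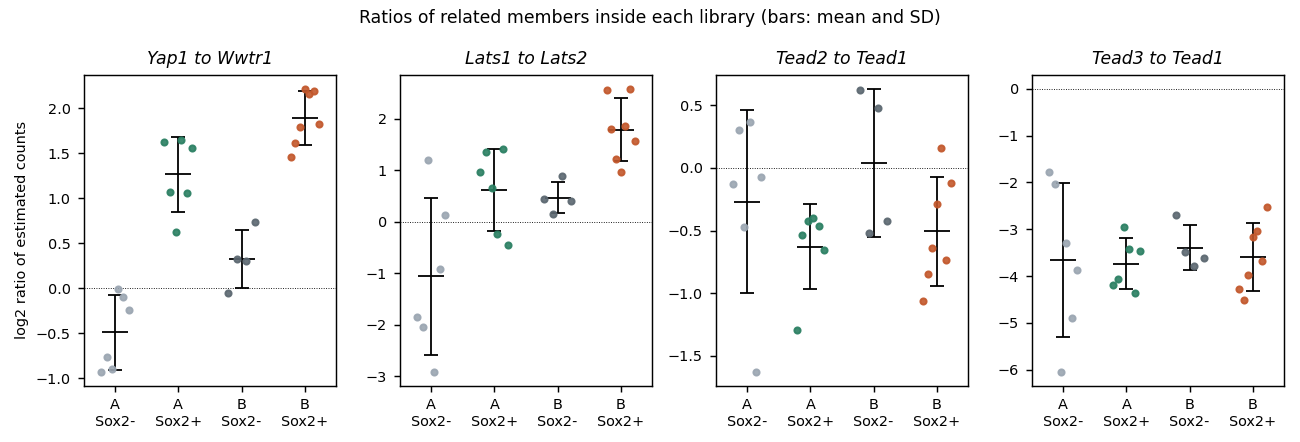
Log2 ratio of the estimated counts of related genes inside each library, by batch and sorted population. Points are libraries and bars are the mean and SD. The ratio of Yap1 to Wwtr1 was higher in every Sox2+ library than in any Sox2- library of its batch, that of Lats1 to Lats2 was so in batch B only, and the ratios of Tead2 and Tead3 to Tead1 overlapped.

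Among the Tead factors, which give Yap and Taz their DNA binding, Tead1 and Tead2 were the abundant members and Tead4 was at the edge of detection. Tead1 ran from 73.2 CPM over a median of 118 to 182 CPM in batch A Sox2-negative and from 119 over 137 to 174 CPM in batch A Sox2-positive libraries. Those of batch B had 98.8, 182, 159 and 162 CPM in Sox2-negative cells, and the Sox2-positive ones ran from 127 over 211 to 228 CPM. The populations overlapped in both batches. The combined log2 fold change was 0.19 (SE 0.14, 95% interval -0.09 to 0.48, adjusted p 0.231).

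Tead2, a factor known for its expression in embryonic tissue, ran from 58.7 CPM over 100 to 120 CPM in batch A Sox2-negative and from 71.1 over 91.0 to 106 CPM in batch A Sox2-positive libraries. Batch B Sox2-negative libraries had 152, 127, 221 and 121 CPM, and Sox2-positive ones ran from 109 over 130 to 145 CPM. The populations overlapped in both batches, and library 3 of the batch B Sox2-negative group was the highest of all. The combined log2 fold change was -0.25 (SE 0.12, interval -0.50 to -0.01), and it did not pass after adjustment over all genes (adjusted p 0.0714). The log2 ratio of Tead2 to Tead1 was lower in Sox2-positive libraries by 0.36 in batch A and by 0.54 in batch B on average, with overlapping ranges (differences -0.36 and -0.54, exact permutation test, adjusted p 0.384 and 0.202). Without library 5 of the batch A Sox2-negative group, the lowest of that group in Tead2 and the highest in Tead1, the batch A difference was -0.63 with an adjusted p of 0.0346 (exact permutation test).

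Tead3 was about an order of magnitude below Tead1 in counts. Its 6 batch A Sox2-negative libraries were far apart, with 33.7, 21.2, 1.79, 7.42, 5.93 and 8.60 CPM (7 to 138 counts), while the Sox2-positive libraries of that batch stayed between 6.96 and 15.2 CPM. For batch B the range was 11.5 to 16.3 CPM in Sox2-negative and 9.15 to 21.7 CPM in Sox2-positive libraries. The combined log2 fold change was -0.19 (SE 0.33, interval -0.88 to 0.49, adjusted p 0.636), the least precise of the tested members. The ratio of Tead3 to Tead1 did not pass either (exact permutation test, adjusted p 0.909 for batch A and 0.694 for batch B).

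Tead4 did not pass the filter on low counts and has no fold change here. The batch A Sox2-negative libraries had 4, 3, 12, 3, 11 and 5 counts, and the Sox2-positive ones had 3 counts in library 1 and 0 in the other five. In batch B the Sox2-negative libraries had 19, 4, 0 and 0 counts, and the Sox2-positive ones had 1 count in library 1 and 0 in the other six. Taking 3 counts as the least that can be told from none, the floor lay between 0.314 and 1.30 CPM over the libraries (counting error only), so no Sox2-positive library was above it. The log2 ratio of Tead4 to Tead1 was lower in Sox2-positive libraries of batch A by an amount that depends on the pseudocount (-3.62 with 0.5 and -1.52 with 5 added to each count, exact permutation test, adjusted p 0.0108 in both cases), and in batch B it did not pass (adjusted p 0.320).

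Set against each other per length, Tead2 made up the largest share of the Tead counts per kilobase in every group. Its share was 63.3% ± 10.8 (SD, n = 6) in batch A Sox2-negative, 59.3% ± 5.48 (n = 6) in batch A Sox2-positive, 68.8% ± 8.15 (n = 4) in batch B Sox2-negative and 61.0% ± 6.06 (n = 7) in batch B Sox2-positive libraries. Tead1 came next with 31.7% ± 11.5, 37.0% ± 5.49, 27.7% ± 7.91 and 35.3% ± 6.90 in the same order. Tead3 stayed between 3.29% and 4.18% on average and Tead4 between 0.00914% and 0.791%. These shares divide by the mean length of each gene's annotated protein-coding transcripts, and they move with that choice.

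Of the Lats kinases, Lats2 was lower in Sox2-positive cells and Lats1 did not pass the test. Lats2 ran from 27.4 CPM over a median of 72.7 to 106 CPM in batch A Sox2-negative and from 15.4 over 21.6 to 36.9 CPM in batch A Sox2-positive libraries. Batch B Sox2-negative libraries lay close together at 48.2, 44.5, 44.7 and 47.5 CPM, and the Sox2-positive ones ran from 10.7 over 19.1 to 27.0 CPM. In batch A only library 3 of the Sox2-negative group, the one at 27.4 CPM, fell within the Sox2-positive range, and in batch B the groups were apart. The level in Sox2-positive cells was 0.344 times that in Sox2-negative cells (log2 fold change -1.54, SE 0.21, adjusted p 6.95e-07), with -1.66 (SE 0.32, adjusted p 0.000565) in batch A and -1.32 (SE 0.26, adjusted p 0.000395) in batch B.

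Lats1 varied more between libraries than between populations. The batch A Sox2-negative libraries had 14.9, 21, 63.1, 9.90, 37.2 and 116 CPM, and the Sox2-positive ones ran from 20.1 over 38.1 to 49.4 CPM. In batch B the Sox2-negative libraries had 65.4, 49.3, 82.5 and 62.9 CPM and the Sox2-positive ones ran from 41.1 over 63.1 to 84.0 CPM. The combined log2 fold change was -0.25 (SE 0.28, interval -0.84 to 0.33, adjusted p 0.457). The log2 ratio of Lats1 to Lats2 was higher in Sox2-positive libraries of batch B (1.79 ± 0.62, n = 7, against 0.47 ± 0.30, n = 4, ranges apart, exact permutation test, p 0.00606, adjusted p 0.0152). In batch A it was 0.62 ± 0.80 against -1.06 ± 1.52 (n = 6 each), with overlap, and it missed the threshold after adjustment (exact permutation test, p 0.0455, adjusted p 0.0909). Without library 3 of the batch A Sox2-negative group the difference in that batch was 2.13 with an adjusted p of 0.026 (exact permutation test).

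The regulators moved in opposite directions. Amotl2, an angiomotin family scaffold at cell junctions that binds Yap and promotes its phosphorylation, was lower in Sox2-positive cells. In batch A its Sox2-negative libraries had 43.7, 50.4, 6.39, 33.9, 45.4 and 29.2 CPM and the Sox2-positive ones ran from 6.48 over 14.2 to 20.2 CPM. In batch B the Sox2-negative libraries had 29.9, 30.9, 40.9 and 24.0 CPM and the Sox2-positive ones ran from 4.05 over 5.45 to 8.49 CPM. The groups of batch B were apart, and those of batch A overlapped only through Sox2-negative library 3 at 6.39 CPM, the library that was also lowest of its group in Lats2 and Tead3. The level in Sox2-positive cells was 0.267 times that in Sox2-negative cells (log2 fold change -1.91, SE 0.29, adjusted p 2.68e-06), with -1.44 (SE 0.45, adjusted p 0.0156) in batch A and -2.37 (SE 0.28, adjusted p 3.49e-06) in batch B.

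Ajuba, a LIM domain protein of cell junctions that binds Lats kinases and restrains them, was the only member called higher in Sox2-positive cells. Its batch A Sox2-negative libraries ran from 23 CPM over 36.2 to 92.5 CPM, and the Sox2-positive ones from 95.3 over 120 to 139 CPM. In batch B the Sox2-negative libraries had 31.8, 44.5, 76.9 and 47.8 CPM and the Sox2-positive ones ran from 118 over 140 to 150 CPM. The populations did not overlap in either batch, although in batch A the highest Sox2-negative library, library 6, was just below the lowest Sox2-positive one. The level in Sox2-positive cells was 2.57 times that in Sox2-negative cells (log2 fold change 1.36, SE 0.18, adjusted p 4.53e-07), with 1.34 (SE 0.29, adjusted p 0.00145) in batch A and 1.46 (SE 0.19, adjusted p 8.46e-06) in batch B.

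**Figure D3:**
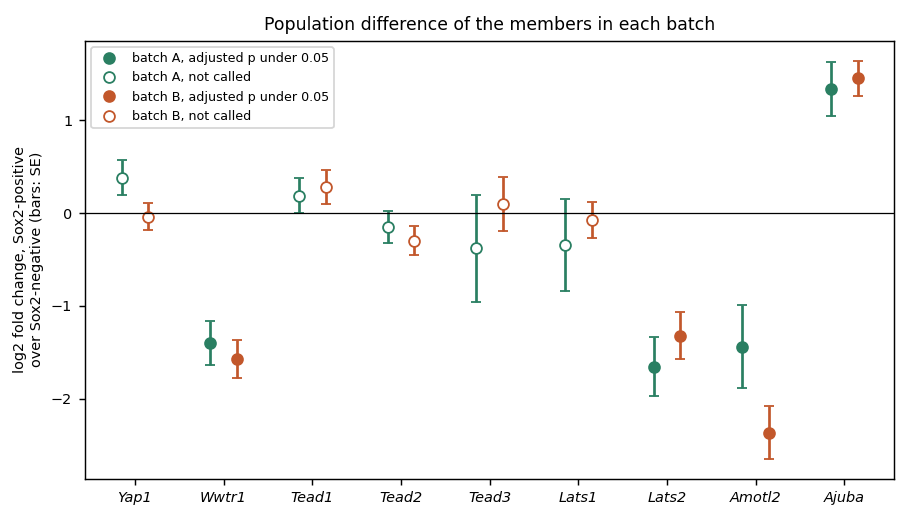
Log2 fold change of the 9 tested genes, Sox2-positive over Sox2-negative, in batch A and in batch B, with bars of 1 SE. Filled points had an adjusted p under 0.05. Wwtr1, Lats2 and Amotl2 were below 0 and Ajuba above 0 in both batches, and the other five were not called in either.

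The population difference did not differ detectably between batches for any member. In the test of the population by batch interaction, 0 of 9 members were called by edgeR, against 7.04% of all genes (2.82% higher and 4.22% lower), and 1 member, Yap1, had an unadjusted p under 0.05 (interaction -0.49, SE 0.23, p 0.0449, adjusted p 0.235). DESeq2 and limma-voom also called 0 members. The interaction of Amotl2 was the largest in size (-0.98, SE 0.55, interval -2.11 to 0.14, adjusted p 0.334), so that a difference of that size cannot be told from none here.

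Between batches, Yap1 and Tead2 were higher in batch B Sox2-negative cells than in batch A Sox2-negative cells. The log2 difference was 0.86 (SE 0.17, adjusted p 0.0015) for Yap1 and 0.69 (SE 0.18, adjusted p 0.011) for Tead2, and these 2 of 9 members compare with 11.2% of all genes called (5.85% higher and 5.35% lower, or 1005 and 919 genes). In Sox2-positive cells Tead2 was higher (0.48, SE 0.16, adjusted p 0.049) and Amotl2 lower (-1.15, SE 0.37, adjusted p 0.0443) in batch B, where 10.4% of all genes were called (4.85% higher and 5.54% lower, or 833 and 952 genes). With total-count scaling the calls over all genes shifted to 661 higher and 1388 lower in Sox2-negative and to 666 higher and 1214 lower in Sox2-positive cells, and Tead2 was no longer called in either population. Without libraries 1 and 2 of both batch B groups, neither member was called in Sox2-positive cells, with log2 differences of much the same size (Tead2 0.55, adjusted p 0.0684, and Amotl2 -1.13, adjusted p 0.159), and Yap1 in Sox2-negative cells was at 0.77 with an adjusted p of 0.05001. The calls in Sox2-positive cells were marginal in another way too: of 23 fits that each left out 1 library, 8 kept the call of Tead2 (highest adjusted p 0.115) and 9 that of Amotl2 (highest 0.118). Among the same fits, Tead2 in Sox2-negative cells lost its call only without batch B Sox2-negative library 3, where its log2 difference was 0.50. Several marker sums moved with batch as well. In Sox2-negative libraries the endothelial markers summed to between 560 and 802 CPM in batch A and 122 and 200 CPM in batch B, the leukocyte markers to between 887 and 1117 CPM and 179 and 216 CPM, and the pericyte markers to between 445 and 796 CPM and 355 and 419 CPM, beside the erythroid sums given above. In Sox2-positive libraries the ameloblast markers summed to between 292 and 359 CPM in batch A and 6.73 and 10.6 CPM in batch B, the pericyte markers to between 59.0 and 96.8 CPM and 255 and 310.4 CPM, and the mesenchymal markers to between 1248 and 1801 CPM and 595 and 715 CPM, beside the glial sums. Single markers did not all move with their sum. Of 4 pericyte markers, Acta2 was called higher and Rgs5 lower in batch B Sox2-negative cells. In Sox2-positive cells Acta2 (mean 31.4 CPM in A and 210 in B) and Cspg4 (41.2 and 72.9) were called higher. Rgs5 (0.933 and 1.47) and Kcnj8 (5.25 and 7.58) were not called there. Of 8 mesenchymal markers there, Col1a1, Col3a1 and Prrx1 were called lower and 5 were not called, among them Col1a2 (573 and 561). The part of any of these cell types in the differences between batches was not tested.

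Levels of different genes can be set in order only per length, here as CPM per kilobase of mean annotated protein-coding transcript length. In Sox2-positive cells the order began with Tead2 (76.4 in batch A and 107.5 in batch B), followed by Tead1 (47.6 and 62.9), Ajuba (35.1 and 40.8) and Yap1 (25.2 and 32.9). Libraries of neighbours within Tead1, Ajuba and Yap1 overlapped, while Tead2 stood apart above them in both batches with this length. Below a gap came, in batch A, Lats2 (13.0), Amotl2 (7.82), Wwtr1 (7.20), Lats1 (6.95) and Tead3 (4.52). In batch B the order below the gap was Lats1 (12), Lats2 (10.3), Tead3 (6.49), Wwtr1 (6.20) and Amotl2 (3.58). Neighbours among these members overlapped in both batches, and Tead4 came last (0.0737 and 0.0167).

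In Sox2-negative cells of batch A the order was Tead2 (80.6), Tead1 (39.8), Lats2 (38.8), Amotl2 (20.3), Yap1 (18.4), Wwtr1 (18.1), Ajuba (13.2), Lats1 (8.44), Tead3 (5.58) and Tead4 (0.984), and every pair of neighbours overlapped. In batch B it was Tead2 (131), Tead1 (51.1), Yap1 (33.5), Lats2 (25.7), Wwtr1 (18.3), Amotl2 (18.3), Ajuba (14.8), Lats1 (12.6), Tead3 (5.98) and Tead4 (0.449). There the ranges of Tead2 against Tead1, Yap1 against Lats2, Lats2 against Wwtr1, Lats1 against Tead3 and Tead3 against Tead4 were apart. Dividing by the longest transcript in place of the mean left only 4, 1, 3 and 4 of the 10 members at the same place in batch A Sox2-negative, batch A Sox2-positive, batch B Sox2-negative and batch B Sox2-positive cells, so the order is a rough one. With the longest transcript Ajuba came first in Sox2-positive cells (35.1 in batch A and 40.8 in batch B, against 26.6 and 37.5 for Tead2, with overlapping libraries). Tead2 stayed above Tead1 and Tead4 stayed last under either length.

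The genes most like the coactivators were found as those with the smallest root mean square difference of centred log2 levels over the 23 libraries, among 11064 genes. For Yap1 these were Nedd4 (0.22), Maged1 (0.25) and Rcor1 (0.25). For Wwtr1 they were Gm44639 (0.34), Pam (0.34) and Rtn4 (0.35). The libraries share groups and batches.

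Beyond the members, 48 further genes of the pathway in 5 lists were followed, of which 46 were tested. Ptpn14 stands both among the upstream regulators and among the targets, and it is counted once in these totals and in each list below. Over both batches 30 of the 46 were called, 9 as higher and 21 as lower in Sox2-positive cells, and the median log2 fold change was -0.44, beside 57.5% of all genes called (24.9% higher and 32.5% lower) with a median of -0.12. In batch A 7 were higher and 17 lower (19.3% and 24.2% of all genes), and in batch B 7 were higher and 21 lower (27.1% and 27.6% of all genes). None of the listed genes was called in opposite directions in the batches.

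In the kinase core, 5 of 9 genes (55.6%) were lower in Sox2-positive cells and 0 higher, where 57.5% of all genes were called and 32.5% were lower. In batch A alone 3 were lower and 0 higher (33.3% called, beside 43.4% of all genes). In batch B alone 5 were lower and 0 higher (55.6%, beside 54.7% of all genes). Map4k4, a kinase that can act beside Mst on Lats, was lower by the widest margin (log2 fold change -1.96, SE 0.26, adjusted p 4.39e-07). Sav1, the scaffold of the Mst kinases, was lower over both batches (-1.83, SE 0.50, adjusted p 0.00292) but passed alone only in batch B (-2.44, adjusted p 1.35e-05, against -1.18, adjusted p 0.304, in batch A), and that difference between batches did not pass the interaction test. Taok2 (-1.16, SE 0.17, adjusted p 2.75e-06) and Stk4, which encodes Mst1 (-0.79, SE 0.20, adjusted p 0.00126), were lower as well. Taok3 was the fifth gene called lower, and with each batch taken alone it was called in batch B and not in batch A. Stk3, Mob1a, Mob1b and Taok1 were not called.

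Among upstream and junction regulators, 8 of 11 were lower and 2 higher, which makes 90.9% called beside 57.5% of all genes (32.5% lower and 24.9% higher). In batch A alone 7 were lower and 1 higher (72.7% called, beside 43.4% of all genes). In batch B alone 7 were lower and 0 higher (63.6%, beside 54.7% of all genes). Fat4, an atypical cadherin known as a receptor upstream of the pathway, had a log2 fold change of -3.36 (SE 0.42, adjusted p 1.35e-07). Amot, a relative of Amotl2, was lower as well (-2.49, SE 0.26, adjusted p 9.17e-09). The 2 that were higher in Sox2-positive cells were Nf2, which encodes the membrane scaffold Merlin (0.66, SE 0.14, adjusted p 0.000288), and Wwc1, which encodes Kibra (1.09, SE 0.41, adjusted p 0.0254), both activators of Lats. Nf2 was called in batch A alone (0.93, adjusted p 0.00214) but not in batch B (adjusted p 0.0592), and Wwc1 was called in neither batch alone (adjusted p 0.0655 and 0.192).

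Of the Vgll cofactors, which bind Tead factors as Yap does, Vgll4 was lower in Sox2-positive cells (-0.57, SE 0.12, adjusted p 0.000244). With each batch taken alone, Vgll4 was called in batch B and not in batch A. Vgll2 was named after its values were seen, since its mean lies below the level required by the naming rule. It had 0 counts in every batch A Sox2-negative library and 7.19 ± 4.44 CPM (SD, n = 6) in batch A Sox2-positive libraries, at least 10.1-fold higher than a floor of 3 counts per library. In batch B it had at most 4 counts in a Sox2-negative library and 21 ± 4.73 CPM (n = 7) in Sox2-positive ones. Vgll3, also named after its values were seen, had 1.11 ± 2.00 CPM in Sox2-negative and 17.6 ± 10.6 CPM in Sox2-positive libraries of batch A (adjusted p 0.00439), against 2.29 ± 2.23 and 1.40 ± 1.72 CPM in batch B (adjusted p 0.587), and the difference between batches did not pass in edgeR (interaction -4.61, SE 1.49, adjusted p 0.0595). DESeq2, limma-voom and a fit with no filter called that interaction, as did the fits without batch A Sox2-negative library 5 or batch B Sox2-positive library 6. In Sox2-positive cells Vgll3 was lower in batch B than in batch A (-3.64, SE 1.01, adjusted p 0.0178). Vgll1 had at most 1 count in any library.

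Of 19 tested known targets of Yap and Taz, 3 were higher and 8 lower (median log2 fold change -0.40). That is 57.9% called, about the same share as over all genes (57.5%, 24.9% higher and 32.5% lower), so the count shows nothing particular to the targets. Crim1, a membrane regulator of growth factors, was higher (2.03, SE 0.21, adjusted p 5.31e-09), as was Fjx1 (1.38, SE 0.50, adjusted p 0.0211). With each batch taken alone, Fjx1 was called in batch B and not in batch A. Ccdc80, a matrix protein, was lower (-3.94, SE 0.37, adjusted p 1.17e-09). Foxf2, a transcription factor of mesenchyme, averaged 61.2 ± 8.03 CPM (SD, n = 6) and 97.6 ± 12.3 CPM (n = 4) in Sox2-negative libraries of batches A and B, and no Sox2-positive library had more than 3 counts. Several of these genes are also expressed by mesenchymal cells, whose markers moved the same way, and the part of those cells was not tested.

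The best known targets, Ccn1 and Ccn2, which encode secreted matrix proteins, were named after their values were seen. Ccn2 was lower in Sox2-positive cells (-2.29, SE 0.39, adjusted p 1.7e-05), at 60.2 ± 30.6 CPM in Sox2-negative and 12 ± 7.88 CPM in Sox2-positive libraries of batch A, and at 32.4 ± 10.3 and 7.77 ± 3.34 CPM in those of batch B. Ccn1 went with the batch: it had 64.6 ± 25.6 CPM in Sox2-negative and 96.6 ± 21.1 CPM in Sox2-positive libraries of batch A (log2 fold change 0.51, adjusted p 0.125), and 30.0 ± 6.00 against 4.22 ± 2.88 CPM in batch B (-2.85, adjusted p 2.34e-05). The difference between those 2 effects passed the interaction test (-3.43, SE 0.48, adjusted p 2.39e-05). Ankrd1, another common reporter of Yap activity, had 0 counts in all 23 libraries.

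Of 5 integrin, FAK and mTOR genes, 3 were higher in Sox2-positive cells and 0 lower (60.0% called, beside 57.5% of all genes, 24.9% higher). Itga3, the integrin subunit of epithelial laminin receptors, was higher by 2.62 (SE 0.28, adjusted p 9.65e-09) on the log2 scale. Rheb, the activator of mTOR complex 1, was higher by 0.61 (SE 0.15, adjusted p 0.00128) over both batches. Alone, it was called in batch B (1.15, adjusted p 3.09e-05) and not in batch A (0.23, adjusted p 0.275), and the interaction passed (0.86, SE 0.24, adjusted p 0.0294). The small GTPase Cdc42 was higher by 0.36 (SE 0.09, adjusted p 0.000801). Mtor and Ptk2, which encodes FAK, were not called.

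**Figure D4:**
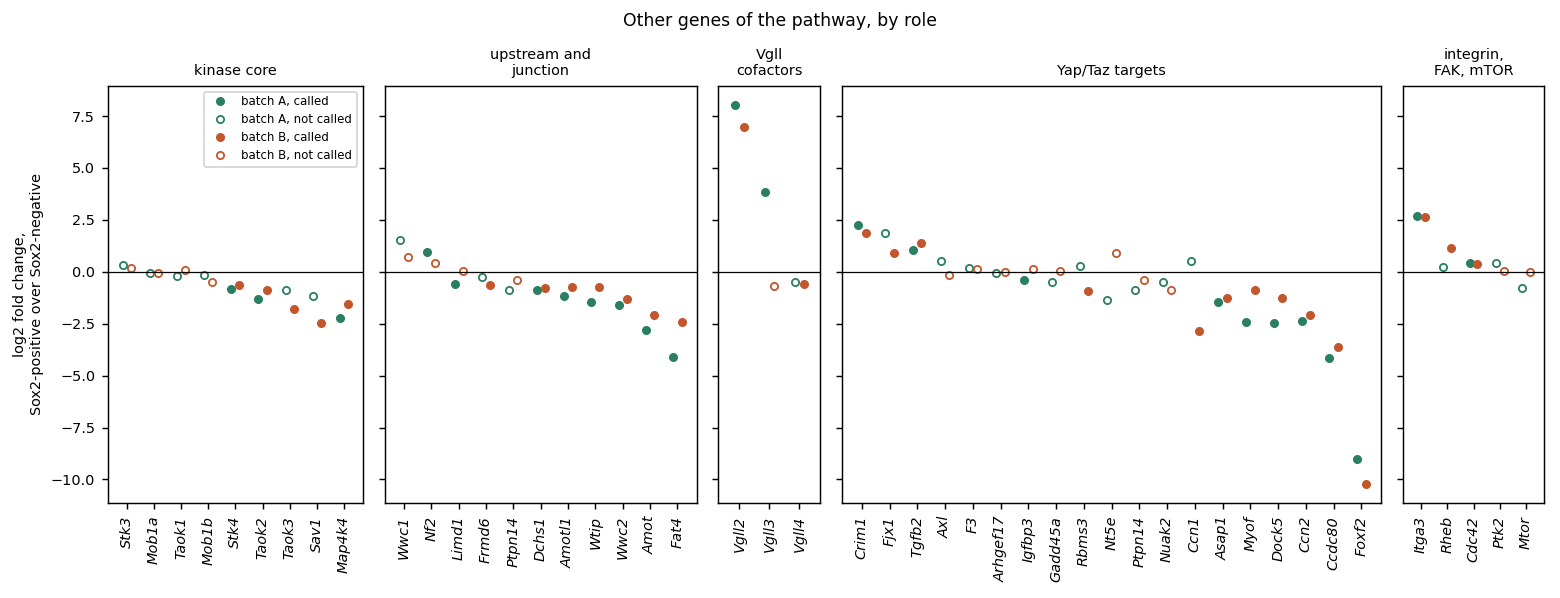
Log2 fold change, Sox2-positive over Sox2-negative, of the tested pathway genes beyond the members, in batch A (green) and batch B (orange), grouped by role and ordered by the fold change over both batches. Filled points had an adjusted p under 0.05. Over both batches 5 of 9 kinase core genes were called lower and 0 higher, and 8 of 19 targets lower and 3 higher. These shares, 55.6% and 57.9% called, were near the 57.5% of all genes (24.9% higher and 32.5% lower). Foxf2 and Vgll2 are near or at 0 counts in 1 population, and their plotted values depend on the prior count.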

How the data were processed

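RNA was measured by Smart-seq2 followed by Tn5 tagmentation, in sorted cells, per the labels' protocols. The deposited table holds the authors' estimated counts per gene and library. The submitters' processing notes name FastQC, Trimmomatic, Salmon and mm10, and annotation and strand setting are not given in the sources used here. No nonzero value is whole (tolerance 1e-09), and the smallest values stay near 1 at short and long transcripts (medians 0.976 and 0.963 for transcripts under 600 and over 2500 bases). Counts were rounded before testing. Symbols came from GENCODE M21 by identifier without version (99.5% of 54347 matched).

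Groups followed the labels, with totals of 3.71 to 4.83, 3.93 to 5.94, 6.40 to 9.54 and 2.31 to 7.11 M (M, 1e+06) in A Sox2-negative, A Sox2-positive, B Sox2-negative and B Sox2-positive libraries. Tests used edgeR 4.0.16 in R 4.3.3 (TMM, filterByExpr with minimum count 10, quasi-likelihood F test, Benjamini-Hochberg over all genes, called at adjusted p under 0.05). Both batches were fitted with batch as covariate, each batch alone, and 4 group means for the interaction and the contrasts between batches. The SE is the log2 fold change over the square root of F, and 95% intervals use the fit's t quantile. Ratios added a pseudocount of 0.5 to each count and were tested by exact permutation (scipy 1.17.1). No 2 libraries of the same group agreed within sampling noise (57 pairs). The members and lists were chosen with earlier results of these data known. Besides the members, each list names up to 2 called genes with the highest and 2 with the lowest log2 fold change among those averaging at least 10 CPM, and other names are said to be chosen after their values were seen or only complete a count. Alternatives were DESeq2 1.42.0, limma-voom (limma 3.58.1), other scalings and filters, the replicate number as a block, a pseudocount of 5, leaving out libraries, and, chosen after seeing the data, the longest transcript as length. The fits were tested on simulated data.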

Additional observations from a re-analysis of the deposited data

Results flagged for a closer look

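In 3 of 40 groups of member values 1 library stood apart from the rest of its group by Dixon's criterion. For normally distributed values chance alone meets it in about 1 group in 20. Tead4 was at 0.671 CPM in batch A Sox2-positive library 1 and at 0.177 CPM in batch B Sox2-positive library 1, with every other library of those groups at 0. Both values are 3 counts or fewer. With all other libraries of a group at 0, any count in the remaining library meets the criterion, so that rate does not apply to them. Ajuba in batch B Sox2-positive library 7 was at 118.1 CPM, the lowest of its group, with a gap of 0.614 of the group's range.

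For 4 genes of the pathway lists the population difference itself differed between batches by the interaction test, out of 46 tested, where 7.04% of all genes passed it. The interaction, batch B minus batch A on the log2 scale, was -3.43 for Ccn1, 1.47 for Myof, -1.24 for Rbms3 and 0.86 for Rheb. Myof was lower in Sox2-positive cells in both batches (-2.43 in A and -0.89 in B). Rbms3, a target list gene, was at 0.26 in batch A and -0.92 in batch B. The interaction of Rheb was not called in 4 of the 23 fits that left out a library (batch B Sox2-negative 1, 2 or 4, or batch B Sox2-positive 2), nor without libraries 1 and 2 of both batch B groups. No member was among these genes.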

How the results depend on the processing

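Depth limits Tead4 most, and Tead3 and Lats1 are limited by the spread between batch A Sox2-negative libraries. The calls of Wwtr1, Lats2, Amotl2 and Ajuba over both batches held in all 23 fits that left out a library and in all 8 other alternatives. Over those alternatives the log2 fold change ran from -1.59 to -1.40 for Wwtr1, -1.53 to -1.42 for Lats2, -1.93 to -1.72 for Amotl2 and 1.30 to 1.51 for Ajuba. Added calls over both batches were Tead2 without batch A Sox2-negative library 5 (-0.32) and Yap1 without batch B Sox2-negative library 2 (0.29), and in batch B Tead2 without Sox2-negative library 4 (-0.40). Total-count scaling moved the median log2 fold change of all genes over both batches from -0.12 to 0.003 and that of batch B over batch A in Sox2-negative cells from -0.004 to -0.152. Libraries with the same number in both populations deviated together little or not at all (correlations from -0.024 to 0.059). The labels name no pairs, so whether the numbers stand for pairs is not known. In 1 of 10 cases the library correlated best with its own number. With the replicate block, genes called for interaction numbered 557 against 1210 without it, Amotl2 in batch A was -1.41 with adjusted p 0.0618, no other member's call changed, and the interaction of Rheb was no longer called. Without libraries 1 and 2 of batch B, interaction calls numbered 481, and calls between batches 1159 in Sox2-positive and 754 in Sox2-negative cells, where limma-voom gave 3313 in Sox2-positive cells. Members called between batches in Sox2-positive cells were 3 with limma-voom (Tead2, Lats1 and Yap1 higher, Amotl2 not called), 1 with RLE and with total-count scaling (Amotl2), 0 with no filter, 0 without those libraries and 0 to 2 when leaving out a library. In Sox2-negative cells they were 1 with total-count scaling (Yap1), 1 without those libraries (Tead2) and 1 to 3 when leaving out a library. The batch B ratios without those libraries were 1.52 for Yap1 to Wwtr1 and 0.99 for Lats1 to Lats2 (exact permutation test, adjusted p 0.190 in both cases), where 5 against 2 libraries cannot give a p below 0.0952. Leaving out a library moved the batch A difference of Lats1 to Lats2 between 1.31 and 2.13 and that of Tead2 to Tead1 between -0.63 and -0.22, the former without Sox2-negative library 5 (exact permutation test, adjusted p 0.0346). The cause of these changes was not tested.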
